A study of Mus musculus with 2 samples.

Results

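The genes described here are 10 members of polyamine metabolism in the mouse: the ornithine decarboxylase antizymes Oaz1, Oaz2 and Oaz3, the antizyme inhibitor Azin1, the biosynthetic enzymes Odc1, Amd1, Srm and Sms, and the catabolic enzymes Sat1 and Smox. They were taken by name, as every probe of a pair of promoter arrays whose gene label was one of these symbols or a synonym, and they are 10 of 17306 genes with values on the arrays. The set was selected on CREM over IgG ratios of these same arrays, so the values below describe it and test nothing. Oaz3, Srm and Smox lay on array 1, and the other 7 genes on array 2.

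Polyamines are small cations that bind RNA and chromatin, and their supply is held in check by a feedback loop. Ornithine decarboxylase makes putrescine, spermidine and spermine are built from it with aminopropyl groups, and a rise in polyamines makes ribosomes shift frame on antizyme mRNA, so that antizyme is made and sends ornithine decarboxylase to the proteasome. The testis is rich in polyamines, and one antizyme, Oaz3, is made in haploid germ cells, the same stage at which CREM, a transcription factor that binds the cAMP response element, is active.

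The study asked where CREM sits on promoter DNA of adult mouse testis. Germ cells pooled from 5 testes of adult male C57BL/6 mice were fixed with 1% formaldehyde for 10 min and sonicated. DNA precipitated with a CREM antibody (sc-440, Santa Cruz) was labelled with Cy5, and DNA precipitated with goat IgG, the negative control, was labelled with Cy3. Both were hybridised together, once per array, with no dye swap. Each array therefore stands for 1 precipitation pair without a replicate, no p-value can be given, and antibody and dye cannot be told apart. The pool holds all germ cells of the testis, so a ratio cannot be placed in 1 stage of spermatogenesis. Every ratio below is log2 of CREM over IgG, from the scanner's processed signals, centred on the array median. A window is the median of 3 adjacent probes with gaps of up to 500 bp between starts, and a window at 1 or more (2-fold) counts as called.

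On arrays 1 and 2, 228277 and 226404 probes were used. The CREM signal was well above background at 96.3% and 95.5% of all probes, and the IgG signal at 77.4% and 78.5%. Control probes spotted many times had an SD of the log2 ratio of 0.14 (median over 21 control probes on each array), and the scanner's own error of a probe was 0.249 and 0.247 in the median. Neither covers the spread between precipitations.

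CREM-side windows were found at 5 of the 10 genes: Oaz1 (3.50), Oaz3 (2.68), Amd1 (2.09), Azin1 (1.53) and Sms (1.42). The other highest windows were 0.82 at Odc1, 0.67 at Smox, 0.53 at Oaz2, 0.26 at Sat1 and 0.18 at Srm. In this order Azin1 and Sms, Odc1 and Smox, Smox and Oaz2, and Sat1 and Srm differed by less than the median scanner error of a probe. Of all 17306 genes, 34.5% had such a window, so a called window is common on these arrays and the count of 5 is no result about this set. By height, Oaz1 stood 8th of 8651 genes on its array, where 0.0925% were as high, and between 2nd and 41st under the other settings. Oaz3, whose window holds probes not above background in IgG, reached 2.03 with those at the bound described below, 234th of 8655 genes on its array. With normexp background correction its highest window was a different one, at 0.66, 1909th. At a stricter limit of 1.5, 4 of the 10 genes remained above it, against 14.1% of all genes. On the opposite side, 4 of the 10 genes (Oaz1, Sms, Sat1 and Smox) had a window at or below -1, where IgG exceeds CREM by 2-fold or more, and 33.7% of all genes had one. The median of the highest windows was 1.12 over the 10 genes, against 0.77 over all genes, and the median of the lowest was -0.91, against -0.76. The 10 genes had a median of 16 windows, and all genes 19. Of the 5 called genes, only Oaz1, Azin1 and Amd1 had both channels well above background at all 3 probes of the highest window. Oaz3 had a lower called window of such probes, at 0.58, 1.64 and 1.84. With only such probes used, 4 of the 10 genes had a called window, against 20.9% of all genes.

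**Figure D1:**
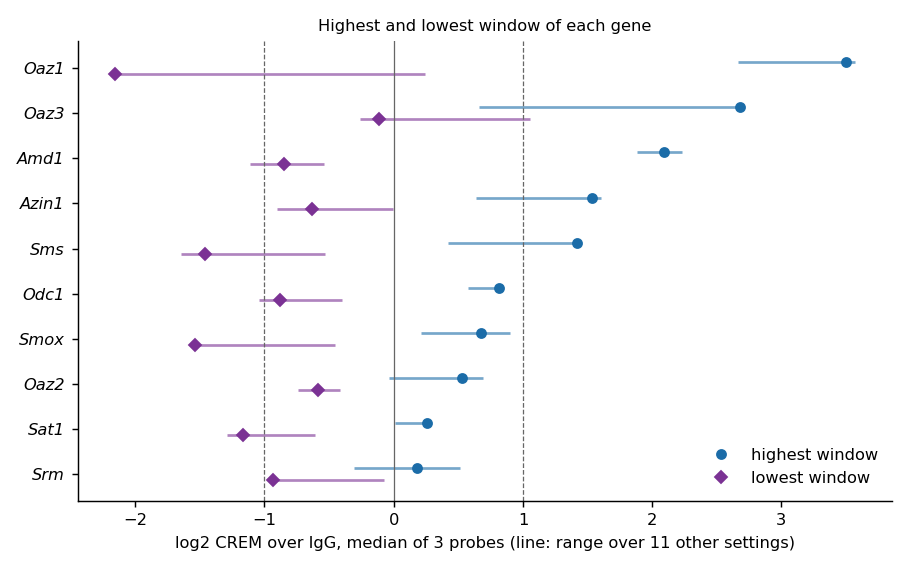
Highest (circles) and lowest (diamonds) window of each of the 10 genes, in log2 CREM over IgG on the x axis, with lines for the range over 11 other ways to process the arrays and dashed lines at 1 and -1. Oaz1 and Amd1 stayed above 1 under all 11, while the lines of Oaz3, Azin1 and Sms cross it.

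Oaz1, the broadly expressed antizyme, had the highest ratio of the set, just upstream of its start. Its 19 probes lay between chr10:80286758-80291616 (mm9), and 4 neighbouring probes covered the stretch from 638 to 160 bp upstream of the RefSeq start. From the far probe to the near one their ratios were 2.67, 4.32, 3.50 and 2.28. The CREM and IgG signals at these probes were 5597 and 869, 6219 and 306, 18210 and 1589, and 3315 and 673, so all 8 signals were above background. The scanner error of the 4 ratios was between 0.30 and 0.46, well under the ratios themselves. The highest window, chr10:80288734-80289127, was formed by the first 3. Farther out, 4 probes between 2620 and 1923 bp upstream gave -0.26 to 0.40, and no probe lies between them and the peak.

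The signal at Oaz1 turned over sharply past the start. Probes centred 231 and 384 bp downstream gave -2.16 and -2.51, with CREM signals of 159 and 263 against IgG signals of 702 and 1472. The next 4 probes, from 556 to 988 bp downstream, were back on the CREM side at 1.64, 0.94, 1.58 and 1.08. From there the ratio ran through 0.67 and 0.71 to values between -0.29 and 0.25 from 1447 bp onward. The pair on the IgG side had a GC content of 64.4% and 60.9%, against 36.7% to 45.8% in the 4 upstream probes. With the array's trend along GC content removed, the pair still gave -1.17 and -1.87, and the 4 upstream probes 2.55, 4.18, 3.46 and 2.17. No probe is centred between 160 bp upstream and 231 bp downstream of the start.

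**Figure D2:**
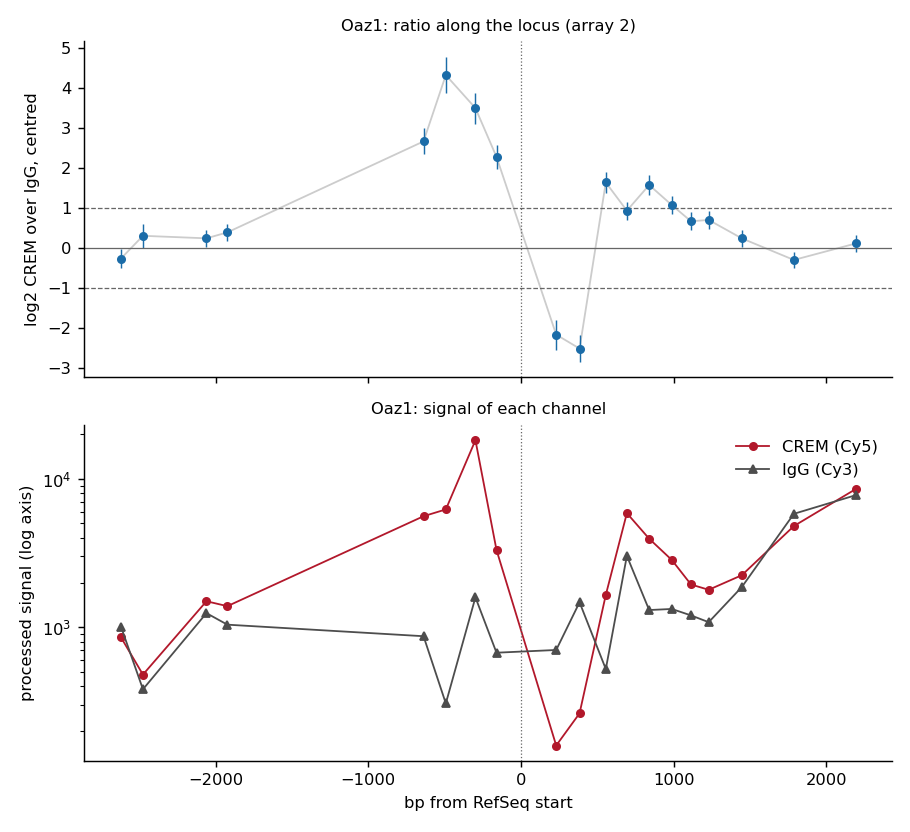
Oaz1 along its locus, with distance from the RefSeq start in bp on the x axis; the upper panel gives the log2 ratio of CREM over IgG with the scanner's error and the lower one the processed CREM (circles) and IgG (triangles) signals on a log axis. The 4 probes from -638 to -160 bp reach 2.28 to 4.32, the next 2 probes lie at -2.16 and -2.51, and the signals cross between them.

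The sequences of these probes are shown because they hold both the highest and the lowest ratios of the set. They are printed as on the array, which was the mm9 plus strand for all 8 probes of these genes that could be placed in a RefSeq promoter, and capitals would mark the core of the cAMP response element (TGACG or CGTCA). None of the 6 has a capital, so the core letters are not in these probes.
Oaz1 probe 5, chr10:80288734-80288793, ratio 2.67: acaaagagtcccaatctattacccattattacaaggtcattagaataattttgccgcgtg
Oaz1 probe 6, chr10:80288881-80288936, ratio 4.32: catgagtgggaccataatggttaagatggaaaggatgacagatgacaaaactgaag
Oaz1 probe 7, chr10:80289080-80289127, ratio 3.50: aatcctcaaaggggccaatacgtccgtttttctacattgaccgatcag
Oaz1 probe 8, chr10:80289215-80289268, ratio 2.28: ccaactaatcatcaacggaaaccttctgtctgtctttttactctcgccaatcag
Oaz1 probe 9, chr10:80289610-80289654, ratio -2.16: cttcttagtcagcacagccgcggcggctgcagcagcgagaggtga
Oaz1 probe 10, chr10:80289762-80289807, ratio -2.51: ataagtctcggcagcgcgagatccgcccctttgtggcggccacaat

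The RefSeq promoter of Oaz1 (GRCm38.p6, chr10:80826406-80826705, plus strand) runs from 250 bases before the start to 50 after it. It is printed because it covers part of the drop between probes 8 and 9, where the array has no probe, and it ends before probe 9. It holds the core TGACG at 2 places, beginning 221 and 13 bp before the start and marked in capitals, and no full element (TGACGTCA). Probe 8 is part of it and lies between the 2 cores.
Oaz1 promoter: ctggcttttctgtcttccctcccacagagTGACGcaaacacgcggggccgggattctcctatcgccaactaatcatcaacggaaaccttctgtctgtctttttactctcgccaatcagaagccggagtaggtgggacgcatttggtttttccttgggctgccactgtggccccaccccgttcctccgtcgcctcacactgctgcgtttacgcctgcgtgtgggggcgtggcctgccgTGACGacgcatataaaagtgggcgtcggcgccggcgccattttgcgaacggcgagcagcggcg
Over 32851 RefSeq promoters of this length, 20.8% held the core at least once on either strand, 5.01% held it 2 or more times, and 1.79% held the full element. A match of letters is a description and not a binding site.

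Oaz3, the antizyme of haploid germ cells, had the broadest CREM-side stretch. Of its 18 probes (chr3:94238261-94242623), 16 lay above 0 and 11 at 1 or more, and 10 of its 12 windows were called. The highest window, chr3:94240272-94240669, was 2.68, from probes at 2.68, 2.15 and 2.98. On either side of it, probes at 1.64 and 1.84 and at 1.74, 1.97 and 1.37 continued the stretch, so that called windows covered 1821 bp from 94239626 to 94241446. A second stretch of 685 bp, with probes from 0.38 to 1.83, lay at the lower-coordinate end. Its probe at 1.83 had a CREM signal of 232 against an IgG signal of 64.2, too dim to give a fold. The probe at 1.37 in the longer stretch was also dim in IgG, and was 0.09 at the bound. The last 3 probes, from 94242014 onward, were at 0.31, -0.26 and -0.11, and 4 probes that the array names for Mrpl9, a mitochondrial ribosomal protein gene within 2000 bp, ranged from -0.43 to 0.31.

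Of the probes used, 4 were dim in IgG at Oaz3 and 0 at Oaz1. At the first and the last probe of the highest window the CREM signals were 1184 and 1271, and the IgG signals of 182 and 158 were not well above background. In processed signals, set against the lowest IgG signal above background on this array (306), those probes were 3.81-fold and 4.09-fold higher in CREM. The window became 2.03, which is no lower limit under other processing. The probe between the dim ones was bright in both channels, with 11580 for CREM and 2559 for IgG, a ratio of 2.15 with a scanner error of 0.287. Another bright probe, at 94239826, had 16710 for CREM and 5288 for IgG and a ratio of 1.64. With normexp background correction the 3 probes of this window gave 0.27, 2.57 and 0.40, and the other bright probe gave 2.27. Neighbouring probes at 1.84, 1.74 and 1.97, above background in both channels, gave 0.64, 0.51 and 0.44. The highest window of Oaz3 was then 0.66, at chr3:94238666-94239087, from probes above background in both channels. No promoter entry for Oaz3 was used here, so the distance to its start is not stated.

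The probes at the centre of Oaz3 are shown, the pair that was bright in both channels and the pair that was dim in IgG. None of the 4 holds the core letters.
Oaz3 probe 8, chr3:94239826-94239876, ratio 1.64, bright: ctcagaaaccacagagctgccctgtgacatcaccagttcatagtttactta
Oaz3 probe 10, chr3:94240272-94240331, ratio 2.68, dim in IgG: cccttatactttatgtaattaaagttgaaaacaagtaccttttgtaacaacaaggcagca
Oaz3 probe 11, chr3:94240503-94240547, ratio 2.15, bright: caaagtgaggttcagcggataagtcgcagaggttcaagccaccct
Oaz3 probe 12, chr3:94240610-94240669, ratio 2.98, dim in IgG: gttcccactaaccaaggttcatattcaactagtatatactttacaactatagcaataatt

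Oaz2, the remaining antizyme, is also broadly expressed, and it showed no such stretch. Its 28 probes used (chr9:65519120-65526803) ranged from -1.20 to 0.55 with a median of -0.12, and 0 of its 16 windows were called on either side. The highest window was 0.53 at chr9:65523105-65523756, with 3 probes from 0.41 to 0.55, between 1220 and 624 bp upstream of the start. All 3 were well above background in both channels. The lowest window was -0.59. In height the antizymes thus lay in the order Oaz1, Oaz3 and Oaz2, and Oaz1 and Oaz3 were measured on different arrays. Between Oaz3 at 2.68 and Oaz2 at 0.53 the gap is several times the scanner error of their probes. They too were measured on different arrays, and that error does not cover the spread between precipitations. With normexp background correction, however, Oaz3 had 0.66 and Oaz2 0.69, so the order of these 2 depends on the setting. It was kept with both channels above background (2.05 and 0.60) and with dim signals at their bound (2.03 and 0.53). Why it changed with normexp was not tested.

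Azin1, which resembles ornithine decarboxylase without its activity and draws antizyme away from it, had a narrow CREM-side window. At chr15:38449476-38449852 its probes were at 0.21, 1.97 and 1.53, with a median of 1.53 that 14.6% of the genes on the array reached or passed. The pair of high probes had CREM signals of 2033 and 7662 against IgG signals of 512 and 2611, and scanner errors of 0.289 and 0.25. The median rested on those 2 probes, and windows of 5 probes gave no more than 0.63. A second called window, of 298 bp, was made of probes dim in IgG. Azin1 also had single probes far on the IgG side, -2.20 at 38449233 and -2.10 at 38448562, with a GC content of 71.1% and 75.6%. The lowest window was -0.64, since their neighbours were not low. Both high probes are shown because they carry the whole window, and neither holds the core letters.
Azin1 probe 16, chr15:38449661-38449720, ratio 1.97: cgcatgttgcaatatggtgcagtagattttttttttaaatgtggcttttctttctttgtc
Azin1 probe 17, chr15:38449793-38449852, ratio 1.53: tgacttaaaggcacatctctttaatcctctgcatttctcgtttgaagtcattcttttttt

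Amd1, S-adenosylmethionine decarboxylase, which supplies the aminopropyl groups for spermidine and spermine, had the clearest upstream peak among the biosynthetic enzymes. On chr10:40022544-40023002 its probes were at 1.89, 2.09 and 2.70, centred 576, 806 and 978 bp upstream of the start. Their CREM signals were 18820, 4430 and 2339, against IgG signals of 5023, 1024 and 354. The scanner errors were 0.269, 0.285 and 0.336, so each of the 3 ratios exceeded its error several times. The flanks gave 0.94 at 400 bp and -0.15 at 99 bp upstream on the side of the start, and 0.99 at 1370 bp and 0.44 at 1486 bp on the far side. The window of 2.09 was 436th of 8651 genes, and 5.04% of them were as high. Downstream, the most GC-rich probe pair of the gene (84.4% each) was at -0.85 and -2.21. A further called window lay 1570 to 2412 bp downstream, with probes at 1.76, -0.22 and 2.00. Its outer probes were dim in IgG, and with IgG at the bound they were 2.13-fold and 1.60-fold higher in CREM. Relative to the start, Amd1 and Oaz1 shared the order of a high upstream block and a low GC-rich block downstream, with the top probe 978 bp from the start in Amd1 and 492 bp in Oaz1. Low ratios at GC-rich probes are common, as 54.0% of all probes at 60% GC or more were at or below -1. For the Amd1 pair no value with the GC trend removed was available.

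The 3 probes of the Amd1 peak and its RefSeq promoter (GRCm38.p6, chr10:40302139-40302438, minus strand) are shown, since the peak lies beyond the promoter window. The probes hold no core letters, and the promoter holds CGTCA 1 time, beginning 60 bp before the start and marked in capitals, with no full element.
Amd1 probe 14, chr10:40022544-40022597, ratio 1.89: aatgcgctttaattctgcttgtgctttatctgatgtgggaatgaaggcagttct
Amd1 probe 15, chr10:40022771-40022830, ratio 2.09: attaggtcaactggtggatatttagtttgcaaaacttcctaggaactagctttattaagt
Amd1 probe 16, chr10:40022943-40023002, ratio 2.70: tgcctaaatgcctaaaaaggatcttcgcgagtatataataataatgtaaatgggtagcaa
Amd1 promoter: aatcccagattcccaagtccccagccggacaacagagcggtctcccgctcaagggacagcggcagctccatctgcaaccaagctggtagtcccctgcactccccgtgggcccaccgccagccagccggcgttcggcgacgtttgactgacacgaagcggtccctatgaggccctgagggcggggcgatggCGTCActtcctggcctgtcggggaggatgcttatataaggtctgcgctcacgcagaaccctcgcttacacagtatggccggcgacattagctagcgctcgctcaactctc

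**Figure D3:**
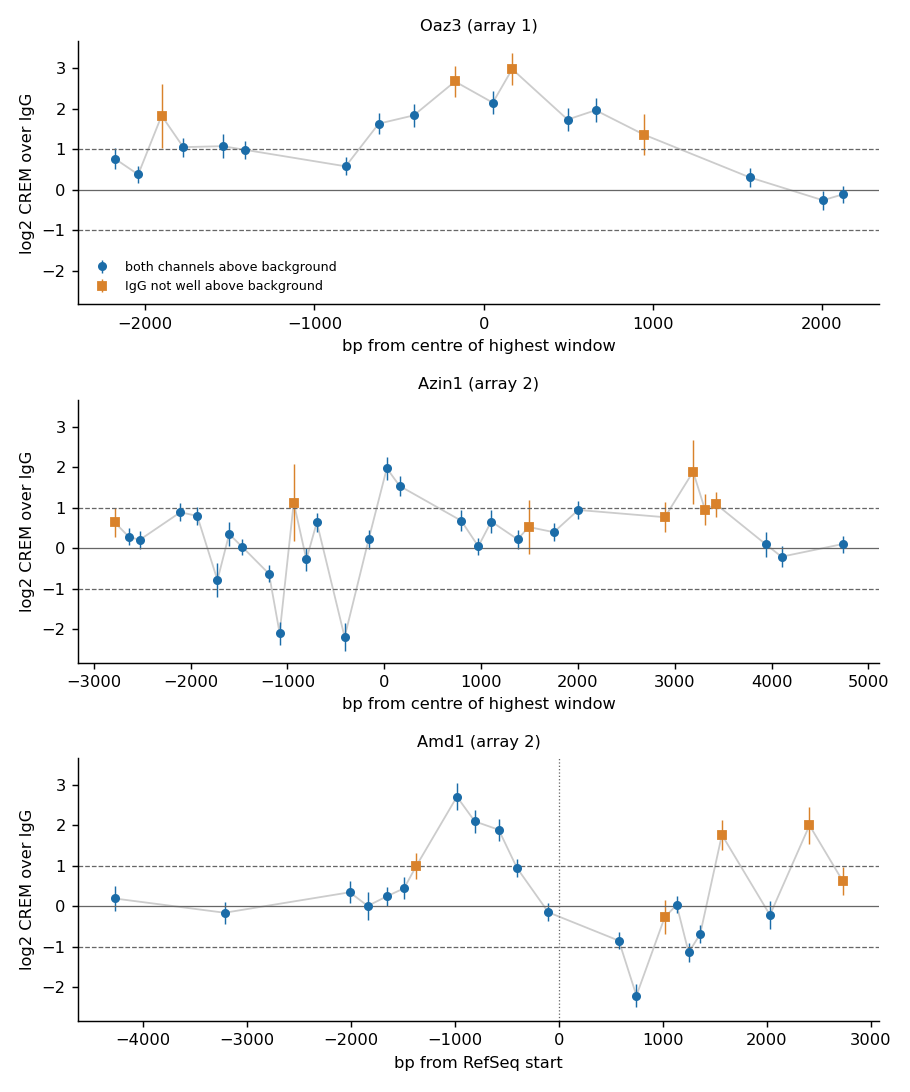
Log2 CREM over IgG of every probe used at Oaz3, Azin1 and Amd1, with the scanner's error; the x axis is distance in bp from the centre of the highest window (Oaz3, Azin1) or from the RefSeq start (Amd1). Circles are probes above background in both channels and squares are dim in IgG; Oaz3 shows a broad run above 1, Azin1 a pair of probes at 1.97 and 1.53, and Amd1 a peak of 3 probes at 1.89 to 2.70.

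Odc1, which encodes ornithine decarboxylase, the enzyme that antizymes inhibit, had no called window. Its 37 probes (chr12:17546374-17554376) ranged from -1.52 to 1.90 with a median of 0.11. The highest window, 0.82 at chr12:17552899-17553367, lay downstream of the start, and 47.2% of genes were as high or higher. Only 1 of its 3 probes was above background in both channels, and this window was 0.27 at the bound. A single probe 628 bp upstream stood at 1.90, with a CREM signal of 826 against an IgG signal of 218 that was not above background. With IgG at the bound this probe was 2.83-fold higher in CREM. Its neighbours were at 0.74, farther upstream, and at -0.38, nearer the start. From 261 bp upstream to 485 bp downstream, 4 GC-rich probes gave -1.06, -0.88, -0.73 and -1.52. The last 2 of these hold the core letters, and the RefSeq promoter of Odc1 holds TGACG 1 time, beginning 79 bp before the start, in a sequence of 78.0% GC.

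Srm, spermidine synthase, and Sat1 had the lowest of the highest windows, and under 7 of the 11 other settings Sat1 was below Srm. The 20 probes of Srm (chr4:147961393-147967806) ranged from -1.06 to 0.78, and the highest window was 0.18 (chr4:147963207-147963904), with 91.9% of the genes on the array as high or higher. The lowest window of Srm was -0.94, at chr4:147965305-147965688, and became 0.46 with the GC trend removed.

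Sms, spermine synthase, on the X chromosome, was called on both sides. On the CREM side its highest window, chrX:153930214-153930695, was 1.42, with probes at -0.84, 1.59 and 1.42. The high pair, 296 and 448 bp upstream of the first of its 2 RefSeq starts, had CREM signals of 188 and 167 against IgG signals of 61.7 and 61.9 that were not above background, and scanner errors of 0.879 and 0.931. The CREM signal there lay below the lowest IgG signal that counted as above background (288), so no fold can be given for them. With dim signals set to that level, no window of Sms was called and the highest was 0.82. On the IgG side, chrX:153929218-153929703 gave -1.46, from probes at -0.90, -1.46 and -2.28 that were above background in both channels, with a GC content of 51.1%, 68.9% and 71.1%.

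Sms also held the only full cAMP response element among the 252 probes used for these genes. The probe lies 772 bp upstream of the same start, and its ratio was 0.40, with a CREM signal of 2413 against an IgG signal of 1801 and a scanner error of 0.212. It is shown because it is the one probe where the full CREM recognition letters could be set against a ratio, and that ratio was under the 2-fold limit. Capitals mark the element.
Sms probe 17, chrX:153930964-153931018, ratio 0.40: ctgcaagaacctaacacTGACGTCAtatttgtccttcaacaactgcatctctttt
Of all probes used on array 2, 0.0508% held the full element. The core was present in 6 of 190 probes of these genes on array 2 (3.16%, against 2.11% of all probes) and in 1 of 62 on array 1 (1.61%, against 2.06%). Besides the Sms probe, these were probes of Odc1, Amd1 and Smox, and 1 of the 7 had a ratio of 1 or more, the Amd1 probe 1570 bp downstream of the start.

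The catabolic genes had no called window on the CREM side. Sat1, the acetyltransferase that marks spermidine and spermine for breakdown or export, reached 0.26 (86.9% of genes as high or higher), and its 25 probes used on chrX:151648473-151655851 had a median of -0.34. Its lowest window, chrX:151648729-151649317, was -1.17, from probes at -0.39, -1.32 and -1.17, with a GC content of only 36.7% to 40.4%. Among the 4 lowest windows at or below -1, it was the one with a median GC content under 40%, at 38.3%, and it was -1.29 with the GC trend removed. Smox, spermine oxidase, reached 0.67 at chr2:131314838-131315529, upstream of its start, where 56.3% of genes were as high or higher. Around 223 to 550 bp downstream of its start, 3 probes at -1.01, -1.85 and -1.53 formed its lowest window of -1.53 (chr2:131317799-131318170). Their GC content was 64.4% to 71.1%, and with the GC trend removed the window was -0.45. A single probe 436 bp upstream was at 1.21, with a CREM signal of 154 against an IgG signal of 65.6, too dim to give a fold. The highest windows of Sat1 and Smox each had only 1 of 3 probes above background in both channels.

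**Figure D4:**
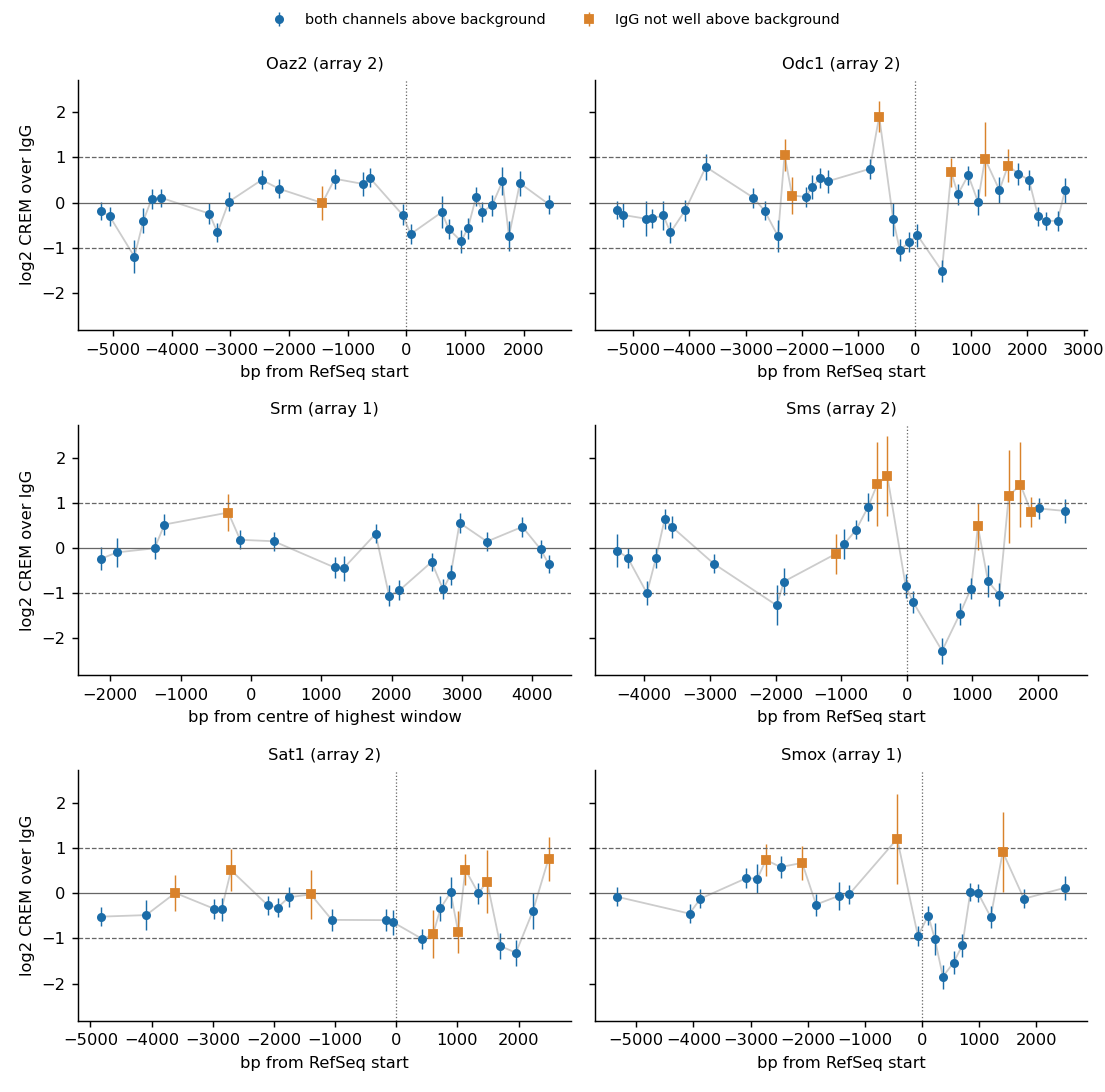
Log2 CREM over IgG of every probe used at Oaz2, Odc1, Srm, Sms, Sat1 and Smox, with the scanner's error; the x axis is distance in bp from the RefSeq start (from the centre of the highest window for Srm). Circles are above background in both channels and squares are dim in IgG; the values above 1 are squares, among them the Sms pair at 1.59 and 1.42, and Sms and Smox dip below -1 downstream of the start.

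The probes were also pooled by distance from the start, for the 7 of the 10 genes that had a probe inside a RefSeq promoter (Oaz1, Oaz2, Odc1, Amd1, Sms, Sat1 and Smox). Between 1000 and 200 bp upstream, 19 probes of 6 genes ranged from -1.06 to 4.32, with a median of 1.21, and 4 of them were dim in IgG. The median of 1.21 was itself the value of a dim probe, the single one of Smox. With the dim ones at their bound the median was 0.74. Per gene, the median there was 3.50 at Oaz1, 1.99 at Amd1, 0.48 at Oaz2 and 0.18 at Odc1. At Sms it was 0.90, or 0.09 with its 2 dim probes at their bound, and the single probe of Smox was too dim for a value. Without Oaz1 and Amd1, the 12 remaining probes had a median of 0.65, or 0.25 at the bound. From 200 bp upstream to 500 bp downstream, 18 probes of 7 genes, all above background in both channels, had a median of -0.86. Farther out the medians were near 0, at 0.02 for 53 probes between 4000 and 1000 bp upstream and -0.03 for 44 probes between 500 and 1500 bp downstream. The stretch at the start was the GC-rich one, with a median GC content of 62.7%, against 40.4% in the upstream stretch. With the GC trend removed, the median of the upstream stretch was 1.17, while the start, at -0.08, was no longer the lowest, with 0.02 farther upstream and -0.11 farther downstream. The last of these leaves out the Amd1 pair at 84.4% GC, which had no value with the trend removed. RefSeq lists a second start for Sms, 919 bp downstream of the one used. Counted from it, the upstream stretch of Sms held 3 probes with a median of -1.21, so the direction at Sms depends on the start chosen, and the median over the 6 genes was 0.94. The probes of a gene share 1 DNA preparation and neighbour each other, so they are not replicates of the profile. The bound and the second start were tried after seeing the data.

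GC-rich probes had lower ratios at these genes, as they did over the whole arrays. In probes under 40% GC the median was 0.32 over 114 probes of these genes, against 0.125 over all probes. Between 50% and 60% it was -0.43 over 24 probes, against -0.34, and at 60% or more it was -0.94 over 26 probes, against -1.08. Of those 26, 12 were at or below -1 and 0 at or above 1, while of all probes in that class 54.0% and 0.408% were. In all, 35 of the 252 probes reached 1, of which 16 were dim in IgG and 2 had a GC content of 50% or more. At or below -1 lay 23 probes, of which 17 had a GC content of 50% or more. Of all probes used on arrays 1 and 2, 9.05% and 9.85% were at or above 1, and 6.47% and 6.57% at or below -1. Which of base composition, dye and antibody sets the IgG-side values was not tested.

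**Figure D5:**
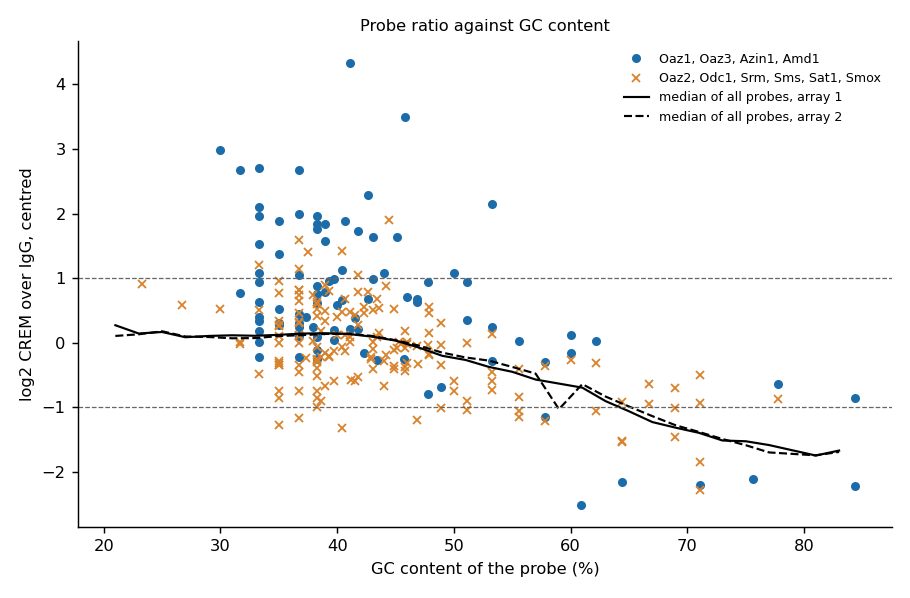
Log2 CREM over IgG against GC content (%) for the 252 probes of the 10 genes, with circles for Oaz1, Oaz3, Azin1 and Amd1 and crosses for the other 6, and lines for the median of all probes in bins of 2% GC on each array. The highest circles lie well above both lines at 30% to 53% GC, and the probes at 60% or more lie below or near 0 with the lines (the notch in the line of array 2 is a bin of 54 probes).

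The wider pathway was described with a list of 37 other genes of polyamine, arginine, methionine and hypusine metabolism and of polyamine transport, of which 31 had values. Of these, 12 had a window at 1 or more and 16 at or below -1, with medians of 0.92 for the highest and -1.03 for the lowest windows. Shares of 34.5% and 33.7% of all genes stand beside those counts. The highest were Dohh, deoxyhypusine hydroxylase, at 2.08 (probes 0.03 to 2.36), and Eif5a, the translation factor whose hypusine residue is made from spermidine, at 1.97 (probes 0.67 to 2.13). Arg2, the mitochondrial arginase that yields ornithine, had 1.95, Oat, ornithine aminotransferase, 1.84, and Mat2b, a regulatory subunit of the enzyme that makes S-adenosylmethionine, 1.75. Among these 5, only Eif5a had both channels above background at all 3 probes. Otc, ornithine transcarbamylase, and Slc22a2, an organic cation transporter, were lowest by their highest window, at 0.20 and 0.11. The deepest IgG-side windows were those of Atp13a2, a lysosomal polyamine exporter, at -2.19, and Eif5a2, a paralogue of Eif5a, at -1.92. Dohh and Amd1 (2.09) differed by less than the scanner error of a probe, and Oaz1 lay above both.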

How the data were processed

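Per the file headers, Agilent Feature Extraction 10.7.1.1 scanned both arrays, with probes placed on mm9 of the mouse. The deposited scanner files hold intensity per spot and channel, both raw and processed, the processed form having background removed and dyes balanced, per the file headers. The deposited LogRatio and its error are on a log10 scale, per the file headers, and the error was turned to log2 here. Other deposited columns are flags for outlier spots and spots well above background. The value table that the authors deposited is in log2: mean minus median background followed by limma's loess, recomputed here, returned them within 5e-08. R 2.10.1 and limma are named in the submitters' processing notes.

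Computed here were log2 of processed Cy5 (CREM) over Cy3 (IgG), less each array's median (0.0241 and 0.0194), without loess. Control and outlier spots, probes without a position and probes dim in both channels were left out. Of 260 probes of the 10 genes, 252 were used, 43 of them dim in IgG. Windows, calls and the bound for dim signals are as given above, with the lowest IgG signal above background at 306 and 288. Gene labels were updated through RefSeq tables (GRCm38.p6), and the label Smo, a current symbol of another gene, was not read as Smox. A promoter entry was found for 7 of the 10 genes and not for Oaz3, Srm and Azin1. Starts were set in mm9 by matching a probe's sequence inside the promoter, and Sms has 2 promoter entries, 919 bp apart, of which the one listed first was used. No mm9 annotation was used, so exons and introns are not stated.

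The genes and lists were chosen with earlier results of these data known. Named from the pathway list were the 5 highest and 2 lowest by highest window and the 2 lowest by lowest window, besides genes within 2000 bp of the 10. With 1 sample per array no test was possible, and the number of arrays limits the precision. Alternatives were normexp (offset 50), loess, the authors' values, no centring, other filters on dim probes, removal of the median ratio per 2% GC bin (at least 50 probes), windows of 5 probes, the mean, a gap of 300 bp and a limit of 1.5. Dim signals at their bound and the second start of Sms were added after seeing the data. The window search was run on simulated data with values shuffled among probes, which does not keep the likeness of neighbouring probes. Python 3.11.15, numpy 2.4.6, pandas 2.3.3, R 4.3.3 and limma 3.58.1 were used.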

Additional observations from a re-analysis of the deposited data

How the results depend on the processing

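Of 10 genes, 5 had a window at 1 or more and 4 at or below -1. With normexp background correction the counts were 3 (Oaz1, Azin1 and Amd1) and 1 (Oaz1), and with windows of 5 probes 3 (Oaz1, Oaz3 and Amd1) and 2 (Sms and Smox). There the lowest window of Oaz1 turned to 0.245, as a window of 5 probes is wider than its pair of low ones. With the GC trend removed the counts were 5 and 2. Both counts stayed within 1.5 times under the other settings, with 4 called genes under the authors' values, with both channels above background, with dim signals at their bound (added after seeing the data) and at a limit of 1.5, where in each case Sms was lost. Over the 11 settings at the limit of 1, the highest window ranged from 2.67 to 3.57 at Oaz1, from 1.89 to 2.23 at Amd1, from 0.66 to 2.70 at Oaz3 (below Amd1 with normexp, with both channels above background and with dim signals at their bound), from 0.63 to 1.61 at Azin1 and from 0.42 to 1.44 at Sms. The wider list had 12 called genes, and 3 with normexp, 4 with the authors' values, 5 with both channels above background, 4 with windows of 5 probes, 6 at a limit of 1.5 and 6 with dim signals at their bound. Called shares of all genes moved too, from 34.5% to 16.2% with normexp, 17.3% with the authors' values and 20.9% with both channels above background. They were 19.8% with windows of 5 probes, 21.3% at the bound and 30.7% with the GC trend removed. The share of all genes at or below -1 moved from 33.7% to 3.7% with normexp, 17.7% with windows of 5 probes and 12.6% with the GC trend removed. Those falls go beside the lower counts on that side. Of 220 highest and lowest windows over these settings, 143 moved by less than the control-spot SD and 77 by more. Of all 220, 7 had another sign, at the highest windows of Oaz2 and Srm and the lowest of Oaz1 and Oaz3, and only that of Oaz1 was past the limit before. Beyond what each setting does by its construction, the cause of a lost call was not tested. Of the 5 called genes, Oaz3 and Sms were those whose highest window held probes dim in IgG. No paired analysis was possible because each array holds 1 sample and no test was made.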
